A study of Mus musculus with 8 samples.

Results

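Transcripts of 35 extracellular matrix genes were followed in mouse ovarian tumours after acute inhibition of JAK kinases. The set was given as a list: collagens, basement membrane genes, matricellular genes, glycoproteins and proteoglycans, and genes for collagen crosslinking and folding. A gene counted as measured where 4 or more of the 8 arrays had a non-control probe of it well above background. That held for 34 of the 35 genes, out of 19778 genes tested in all. Of these, 33 were found by the gene name in the array files and Lamb1, filed as Lamb1-1, through its RefSeq accession. For Col6a3, a chain of type VI collagen, no probe was found by name or accession, and it is not analysed here. Lama1 lay just inside the detection limit, with 4 arrays well above background. Col15a1 had 7 such arrays and the other 32 genes had 8. Among probes left out, those nearest the limit were 1 of Col15a1 and 1 of Vcan, each well above background on 1 array.

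The animals were female C57BL/6J mice of the MISIIR-TAg line, in which the Amhr2 promoter drives SV40 T antigen in cells that carry the receptor for Müllerian inhibiting substance. All 8 mice carried the transgene and bore ovarian tumours of about 500 mm3. Vehicle (0.5% hypermellose and 0.1% Tween 80) was given to 4 mice, and AZD1480, an inhibitor of JAK1 and JAK2, was given at 30 mg/kg in the same vehicle to the other 4. Whole tumours were taken 6 h later, and total RNA of each was labelled with Cy3 and hybridised to its own one-colour array. The comparison asks whether these transcripts differ between the groups at that time.

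Tumour stroma is built on collagens, triple helices whose chains repeat triplets that begin with glycine. Fibrillar collagens give tensile fibres, while type IV collagen, laminins and nidogen form the sheet of the basement membrane. Fibroblasts, pericytes, endothelial cells and carcinoma cells all secrete parts of this matrix, and chaperones and lysyl oxidases fold and crosslink it. Matricellular proteins such as periostin and tenascin C signal to cells more than they bear load.

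A level in what follows is the log2 processed intensity of a gene's brightest probe minus the 75th percentile of its array, so that levels of one gene can be compared between tumours but not between genes. The glycine repeat can be read in 2 of the array's own probes, shown because they carry the structural signature of the family. Both lie on the plus strand of mm9, the Col14a1 probe at chr15:55347733-55347792 and the Col15a1 probe at chr4:47283786-47283845, and capitals mark the codons that begin with GG, which encode glycine.
Col14a1: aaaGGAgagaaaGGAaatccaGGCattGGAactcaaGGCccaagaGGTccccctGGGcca
Col15a1: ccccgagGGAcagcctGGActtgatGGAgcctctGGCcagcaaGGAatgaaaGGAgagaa
In the marked frame, 7 of 20 codons in the Col14a1 probe and 6 of 19 in the Col15a1 probe encode glycine.

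One tumour, AZD1480 replicate 1, stood apart from the others in fibroblast and ciliated oviduct markers. Values without it are given beside many, but not all, of the differences and medians that it moved. Its mean over 9 fibroblast markers was -4.48, against -2.47 to -1.53 in the other AZD1480 tumours and -2.13 to -1.15 in the vehicle tumours. Its mean over 9 ciliated oviduct markers was -4.68, against 1.31 to 1.84 in the other 7 tumours. All 9 fibroblast markers were measured, and each was well above background on at least 1 array. They did not all move together in AZD1480 replicate 1, where Tcf21, at -3.18, was the highest of all tumours. Pdgfra, at -0.68, lay inside the vehicle range. The other fibroblast markers were lowest in that tumour. Of these, Twist1 and Dpt, at -8.57 and -9.49, lay below the lowest well-above-background signal of that array (-7.34). The 11 markers of epithelial tumour cells were also all measured, with means from -1.09 to 1.04. Vehicle replicate 3 stood apart in another list, with a mean of 0.10 over 6 measured adipocyte markers. That mean was -5.90 to -3.84 in the other 7 tumours. The part of adipocytes in its matrix values was not tested. The arrays lay on 2 slides scanned apart, each with 2 vehicle and 2 AZD1480 arrays. Leaving out a tumour makes the groups unequal on its slide, so values without AZD1480 replicate 1, which was on slide 1, can also carry a slide effect. Slide 1 was the brighter, with a 75th percentile of intensity between 4706 and 5795, against 1587 to 2783 on slide 2, and 66.9% to 76.4% of spots were well above background. In whole tumours, fewer cells of a type and less RNA per cell cannot be told apart.

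Among the 34 measured matrix genes, 0 passed the test of AZD1480 against vehicle (limma, Benjamini-Hochberg adjusted p under 0.05 over all genes), with a background of 0% of all genes. Their adjusted p-values ran from 0.974 to 0.999, and the smallest over all genes was 0.647. At an unadjusted p under 0.05 stood 1 of the 34 genes, Loxl2, or 2.94%, against 3.46% of all genes tested. Loxl2 was also the 1 gene whose groups did not overlap, against 2.62% of all genes. Both shares were near the background. By mean, 19 genes were higher in AZD1480 tumours and 15 were lower, with a median log2 difference of 0.15, against 0.04 over all genes. The median SE of a difference was 0.43, and the median SD of a matrix gene over the 8 tumours was 0.66. Most differences, taken without sign, were smaller than that SD. A p that misses the threshold does not show that levels were equal. Without AZD1480 replicate 1, 5 of the 34 genes changed sign and the median was 0.14. The median was 0.04 without vehicle replicate 1, 0.02 without vehicle replicate 2, -0.01 with array weights and -0.11 within slide 2, where 12 genes were higher. The signs of 20 genes were opposite in the 2 slides. Leaving out single tumours turned the sign of every class median except that of the basement membrane genes, which ran from 0.04 to 0.25.

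**Figure D1:**
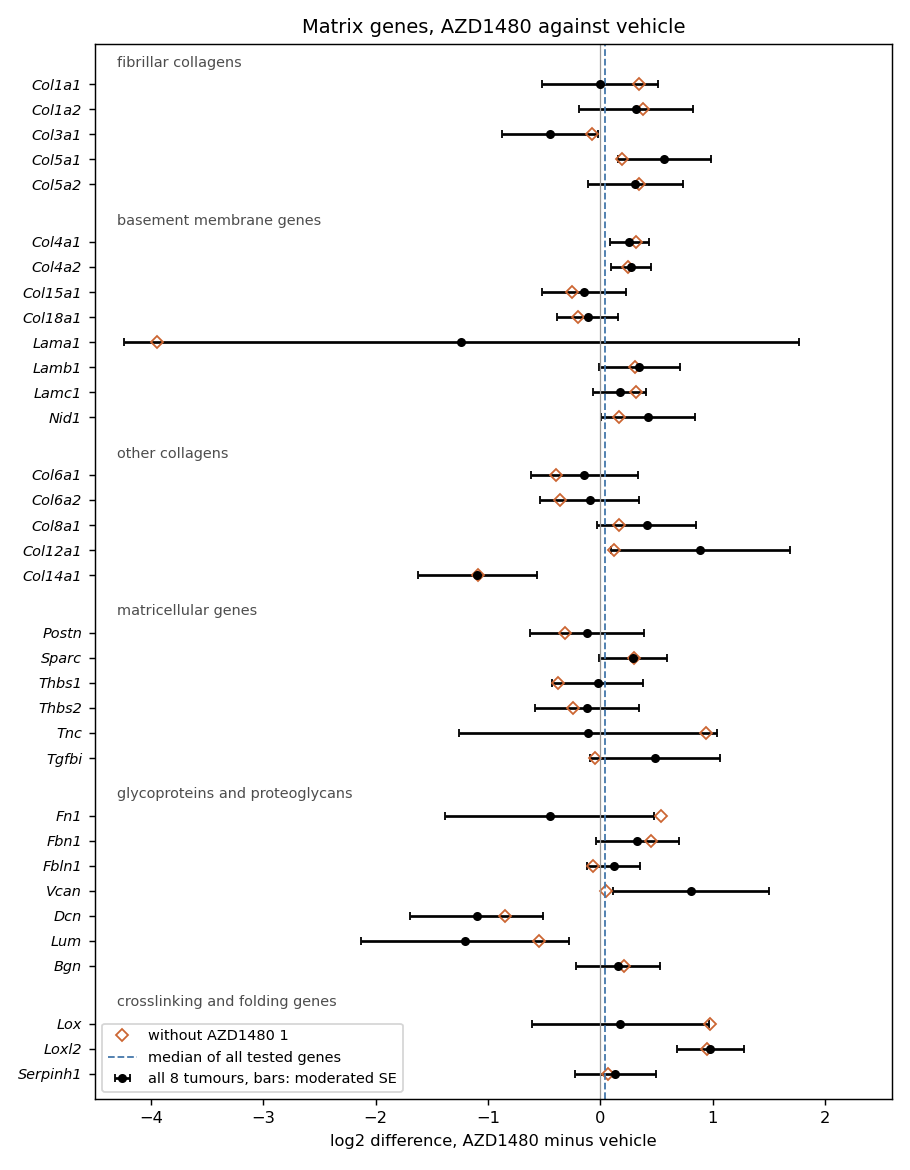
Log2 difference between AZD1480 and vehicle tumours (x axis) for each of the 34 measured matrix genes (rows, grouped by class). Black points are the estimates over all 8 tumours with the moderated SE as bars, open diamonds leave out AZD1480 replicate 1, and the dashed line is the median of all tested genes at 0.04; Loxl2 at 0.98 lies farthest above 0, and Lama1 has the widest bar and moves from -1.24 to -3.95 when that tumour is left out.

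The crosslinking and folding genes comprise Lox and Loxl2, lysyl oxidases that begin the crosslinks between collagen chains, and Serpinh1, the collagen chaperone HSP47. All 3 were higher by mean in AZD1480 tumours, with a median difference of 0.18. Without AZD1480 replicate 1 that median was 0.95 and without vehicle replicate 1 it was -0.10, so the class median, over 3 genes, depended on single tumours.

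Loxl2 levels were 0.17, 1.40, 0.62 and 1.23 in vehicle replicates 1 to 4, and 1.92, 1.52, 2.07 and 1.83 in AZD1480 replicates 1 to 4. The lowest AZD1480 tumour lay above the highest vehicle tumour, a gap that was small beside the range within the vehicle group. The mean was 0.85 ± 0.57 (SD, n = 4) in vehicle and 1.83 ± 0.23 (SD, n = 4) in AZD1480. The difference was 0.98 ± 0.29 (moderated SE; 1.97-fold), with an unadjusted p of 0.0108 and a limma adjusted p of 0.974. It did not pass. Within slide 1 the difference was 0.94 and within slide 2 it was 1.02. Leaving out single tumours gave 0.75 to 1.16, and leaving out AZD1480 replicate 1 gave 0.95. The 0.75 was found without vehicle replicate 1, the lowest tumour for Loxl2.

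Loxl2 was read by 4 probes, and the 2 further ones on chromosome 14 are shown because they hold other sequence under the same gene name. They read the same RNA samples, so they add no replicates to the comparison. They lie on the plus strand of mm9, A_55_P2131348 at chr14:70090017-70090076 and A_51_P275949 at chr14:70092141-70092200. All letters are lower case because no part is singled out.
A_55_P2131348: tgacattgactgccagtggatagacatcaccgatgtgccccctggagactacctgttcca
A_51_P275949: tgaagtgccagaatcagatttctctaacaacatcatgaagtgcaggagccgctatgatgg
Each has 1 reading frame without a stop codon. The first gave a difference of 1.05 ± 0.32 (SE) and the second 1.12 ± 0.32 (SE), and in both every AZD1480 tumour lay above every vehicle tumour. The probe A_55_P1987862, also named Loxl2 in the array files, lies on chromosome 2 of mm9 and did not follow them. Its levels ran from -6.23 to -5.06, with a difference of 0.08 ± 0.27 (SE).

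**Figure D2:**
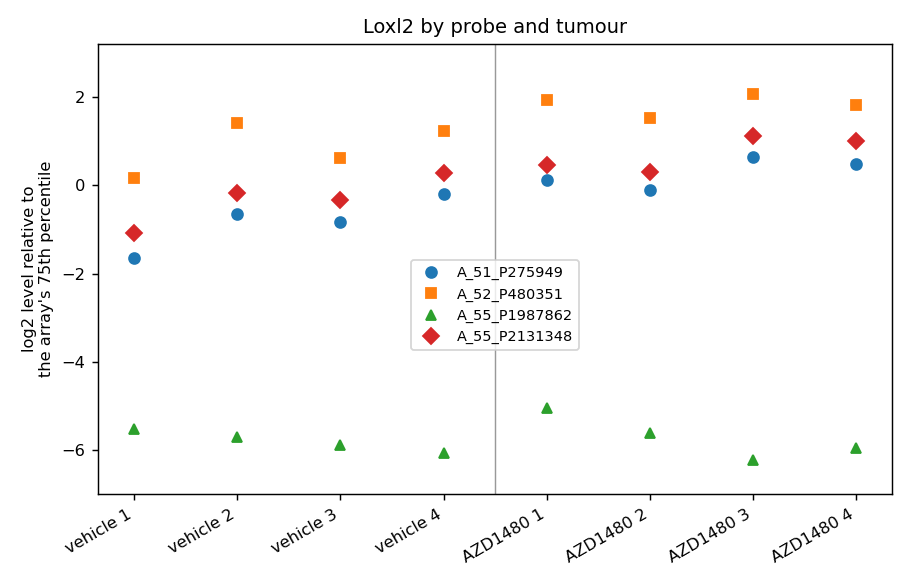
Levels of the 4 probes named Loxl2 (y axis, log2 relative to the array's 75th percentile) in each tumour (x axis, vehicle left and AZD1480 right of the line). The 3 probes on chromosome 14 are higher in all 4 AZD1480 tumours than in any vehicle tumour, while A_55_P1987862 stays between -6.23 and -5.06.

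Lox levels were -4.15, -2.40, -3.48 and -3.20 in vehicle replicates 1 to 4, and -5.50, -1.99, -2.21 and -2.80 in AZD1480 replicates 1 to 4. AZD1480 replicate 1 was the lowest of all, and AZD1480 replicates 2 and 3 were the highest. The difference was 0.18 ± 0.79 (SE, adjusted p = 0.993 by limma), and without AZD1480 replicate 1 it was 0.97 ± 0.42 (SE), with an unadjusted p of 0.0525. Serpinh1 levels were 2.33, 2.86, 3.78 and 3.94 in vehicle replicates 1 to 4, and 3.57, 3.14, 3.35 and 3.37 in AZD1480 replicates 1 to 4. The AZD1480 tumours lay within the vehicle range, at a difference of 0.13 ± 0.36 (SE), or 0.06 without AZD1480 replicate 1. Its sign differed between the slides, at 0.76 within slide 1 and -0.49 within slide 2.

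The fibrillar collagen genes encode the chains of types I, III and V, and 3 of the 5 were higher by mean in AZD1480 tumours, with a median difference of 0.31. The median was 0.01 within slide 1, -0.03 within slide 2, -0.09 without vehicle replicate 2 and -0.05 without AZD1480 replicate 3, so it depended on single tumours. Col5a1, a chain of the collagen that seeds fibrils, was at -2.50, -1.87, -1.57 and -1.86 in vehicle replicates 1 to 4. In AZD1480 replicates 1 to 4 it was at -0.24, -1.80, -1.41 and -2.08. The groups overlapped, and AZD1480 replicate 1 alone stood above the rest. The difference of 0.57 ± 0.41 (SE) was 0.19 without that tumour.

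Col3a1, the type III chain, was at 2.32, 2.41, 2.78 and 2.22 in vehicle replicates 1 to 4 and at 0.86, 2.38, 2.98 and 1.71 in AZD1480 replicates 1 to 4. AZD1480 replicates 1 and 4 were below every vehicle tumour, and replicate 3 was above them all. The difference was -0.45 ± 0.43 (SE), and -0.08 without AZD1480 replicate 1. Col5a2, the partner chain of type V, was at -3.60, -4.40, -4.32 and -4.47 in vehicle replicates 1 to 4, and at -3.98, -4.85, -2.80 and -3.91 in AZD1480 replicates 1 to 4. Both the highest and the lowest tumour were in the AZD1480 group, and the difference was 0.31 ± 0.43 (SE).

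The type I chains Col1a1 and Col1a2, which assemble into one helix, had differences of -0.00 ± 0.51 (SE), with a positive sign under normexp background correction, and 0.32 ± 0.51 (SE). With AZD1480 replicate 1 left out they were 0.35 and 0.38. Col1a1 ranged from 0.18 to 2.08 in vehicle and from -0.02 to 1.95 in AZD1480 tumours. Col1a2 ranged from 0.26 to 2.94 and from 1.61 to 2.06. The AZD1480 values of Col1a2 thus lay inside a vehicle range more than 2 log2 units wide, and its difference was 1.12 within slide 1 and -0.48 within slide 2.

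The basement membrane genes were 8 in number, 5 of them higher by mean in AZD1480 tumours, with a median difference of 0.21. The type IV chains had the narrowest spread of all 34 genes. Col4a1 was at 1.54, 1.56, 1.55 and 1.96 in vehicle replicates 1 to 4, and at 1.73, 1.77, 2.17 and 1.97 in AZD1480 replicates 1 to 4. Col4a2 was at 1.79, 1.53, 1.69 and 2.09 in vehicle replicates 1 to 4, and at 2.13, 1.79, 2.16 and 2.11 in AZD1480 replicates 1 to 4. For both genes vehicle replicate 4 lay with the AZD1480 tumours. For Col4a2, AZD1480 replicate 2 (1.789) also lay just below vehicle replicate 1 (1.792). The groups of both genes thus overlapped. The differences were 0.26 ± 0.17 (SE) and 0.27 ± 0.18 (SE), or 1.19-fold and 1.21-fold, both with an adjusted p of 0.974 by limma. Their signs were the same in both slides, at 0.20 and 0.31 for Col4a1 and at 0.30 and 0.25 for Col4a2.

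Col4a1 and Col4a2 are transcribed in opposite directions from a shared promoter. In the RefSeq promoter table on GRCm38.p6 their start sites lie 21 bases apart on chromosome 8, at 11312826 on the minus strand (Col4a1) and 11312805 on the plus strand (Col4a2), so that the first bases of the transcripts overlap. The 30 bases at chr8:11312800-11312829, plus strand, span both start sites and are shown because they hold the start sites of both members, with the GC box letters GGGCGG in capitals.
Col4a1 and Col4a2 start sites: tcggcagtgcgcGGGCGGcgtctccaaggg
The full window of Col4a2, 250 bases before to 50 after its start site, held 3 matches to GGGCGG or its complement CCGCCC and 1 match to CCAAT or its complement ATTGG. Of all 32851 windows in the table, 35.7% held the GC box letters and 37.4% the CCAAT letters. The table held 28 windows of 23 of the 35 listed genes, 18 of which contained the GC box letters and 9 the CCAAT letters.

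Nid1, which links laminin to type IV collagen, was at 1.43, 1.28, 0.68 and 0.70 in vehicle replicates 1 to 4. In AZD1480 replicates 1 to 4 it was at 2.24, 1.94, 1.25 and 0.37, both above and below the vehicle range. The difference was 0.43 ± 0.42 (SE), and 0.16 without AZD1480 replicate 1. Of its 2 other probes, one gave 0.28 ± 0.42 (SE) and the other, A_55_P2084303, gave 1.00 ± 0.31 (SE) with an unadjusted p of 0.0119 and an adjusted p of 0.953 over all probes by limma. That last probe was dim, at -6.09 to -5.70 in vehicle and -5.49 to -3.99 in AZD1480 tumours, so on it the groups did not overlap. The probes thus disagreed in the size of the difference.

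Lama1, the alpha chain of laminin-111, had the widest spread of all 34 genes, and it is described for that reason, after its values were seen. Its levels were 0.24, -6.85, -0.49 and -7.28 in vehicle replicates 1 to 4, and 3.30, -6.56, -9.24 and -6.83 in AZD1480 replicates 1 to 4. Vehicle replicates 1 and 3 and AZD1480 replicate 1 formed a high group, at -0.49 or more, and the other 5 tumours were at -6.56 or less. The gene was well above background in these 3 and in vehicle replicate 2, and not in the other 4 tumours. The difference between treatments was -1.24 ± 3.01 (SE) over all tumours and -3.95 without AZD1480 replicate 1, so it carries little information on treatment.

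The 3 tumours with high Lama1 were also the 3 highest for granulosa and luteal cell markers. The mean of the 7 measured of 11 listed markers was 0.81, -3.05, 0.85 and -3.47 in vehicle replicates 1 to 4, and 2.18, -3.10, -3.21 and -2.35 in AZD1480 replicates 1 to 4. Fshr, Cyp19a1, Cyp11a1 and Lhcgr were not among the measured genes. Inha, the inhibin alpha chain of granulosa cells, was at 2.00, 1.56 and 4.44 in those 3 tumours and at -2.78 or less elsewhere. Foxl2, a transcription factor of the same cells, did not follow them and stayed between 3.27 and 3.65 in all tumours. The part of these cells in the Lama1 values was not tested.

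**Figure D3:**
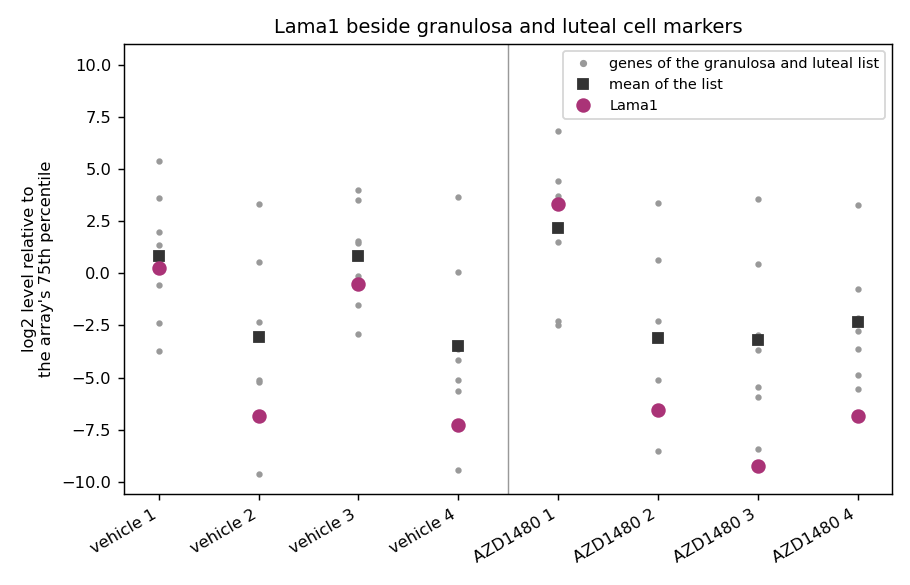
Levels (y axis, log2 relative to the array's 75th percentile) of Lama1 (purple), of 7 granulosa and luteal cell markers (grey) and of their mean (black squares) in each tumour (x axis, vehicle left and AZD1480 right of the line). Lama1 and the marker mean are highest in vehicle 1, vehicle 3 and AZD1480 1.

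The other laminin chains differed less between tumours. Lamb1, the beta chain, ranged from 0.88 to 2.71 in vehicle and from 2.18 to 2.40 in AZD1480 tumours, with a difference of 0.34 ± 0.36 (SE). Lamc1, the gamma chain, ranged from 2.92 to 3.51 and from 3.02 to 3.79, with a difference of 0.17 ± 0.23 (SE), or 0.32 without AZD1480 replicate 1. Col15a1 and Col18a1, collagens of the outer basement membrane zone whose ends give restin and endostatin, had differences of -0.15 ± 0.37 (SE), positive with normexp background correction, and -0.11 ± 0.27 (SE). With AZD1480 replicate 1 left out they were -0.25 and -0.20. Col15a1 ranged from -6.53 to -5.46 in vehicle and from -6.93 to -5.47 in AZD1480 tumours, and was not well above background in AZD1480 replicate 2. Col18a1 ranged from 3.17 to 4.28 and from 3.44 to 3.90. None of these 4 genes separated the groups.

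The other collagens included chains of type VI, a microfibril, type VIII, a network collagen of vessel walls, and types XII and XIV, which sit on fibril surfaces. Of the 5 measured, 2 were higher and 3 lower by mean in AZD1480 tumours, with a median difference of -0.10, and -0.36 without AZD1480 replicate 1. Col14a1 was at 0.40, -1.57, -0.91 and -1.76 in vehicle replicates 1 to 4, and at -2.08, -2.19, -1.18 and -2.77 in AZD1480 replicates 1 to 4. AZD1480 replicates 1, 2 and 4 were below all vehicle tumours, and replicate 3 lay between them. The difference was -1.10 ± 0.53 (SE; 2.14-fold), with an unadjusted p of 0.0727 and an adjusted p of 0.974 by limma. It was negative in both slides, at -1.55 and -0.64, and -1.09 without AZD1480 replicate 1. Without vehicle replicate 1, the highest tumour, it was -0.65. Its second probe, whose sequence is given above, gave -0.75 ± 0.54 (SE).

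Col12a1 was at -3.12, -1.96, -1.19 and -2.81 in vehicle replicates 1 to 4, and at 0.93, -2.60, -1.95 and -1.90 in AZD1480 replicates 1 to 4. One tumour, AZD1480 replicate 1, was more than 2 log2 units above all others, and the difference of 0.89 ± 0.80 (SE) was 0.12 without it. Col8a1 was at -3.50, -1.85, -2.39 and -2.31 in vehicle replicates 1 to 4, and at -1.35, -2.0, -2.07 and -2.98 in AZD1480 replicates 1 to 4. These ranges overlapped, with a difference of 0.41 ± 0.44 (SE), which was 0.16 without AZD1480 replicate 1 and 0.09 without vehicle replicate 1. Col6a1 and Col6a2, whose chains join in one protomer, had differences of -0.14 ± 0.48 (SE) and -0.10 ± 0.44 (SE), or -0.39 and -0.36 without AZD1480 replicate 1. Both were highest in vehicle replicate 1, at 5.0 and 2.73, and lowest in AZD1480 replicate 4, at 2.78 and 0.82.

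The matricellular genes, 2 of 6 of them higher by mean in AZD1480 tumours, had a median difference of -0.07. It was -0.15 without AZD1480 replicate 1, 0.08 with normexp background correction and 0.47 within slide 1. Sparc, a collagen-binding glycoprotein, was at 6.13, 6.51, 6.94 and 7.19 in vehicle replicates 1 to 4, and at 6.96, 6.39, 7.36 and 7.21 in AZD1480 replicates 1 to 4. The groups overlapped and differed by 0.29 ± 0.30 (SE), with the spot saturated on 1 array. Tgfbi, a TGF-beta induced adhesion protein, was at 2.62, 2.93, 2.66 and 3.57 in vehicle replicates 1 to 4, and at 5.06, 2.71, 3.66 and 2.32 in AZD1480 replicates 1 to 4. AZD1480 replicate 1 was again the highest, and the difference of 0.49 ± 0.58 (SE) was -0.05 without it.

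Thbs2, an antiangiogenic thrombospondin, was at -3.26, -4.36, -2.73 and -3.41 in vehicle replicates 1 to 4, and at -3.19, -3.01, -3.36 and -4.67 in AZD1480 replicates 1 to 4. Its groups overlapped nearly in full, at a difference of -0.12 ± 0.46 (SE), positive with normexp background correction and -0.24 without AZD1480 replicate 1. Thbs1, its paralogue, and Postn, encoding periostin, differed by -0.03 ± 0.40 (SE) and -0.12 ± 0.51 (SE), and by -0.38 and -0.31 without AZD1480 replicate 1. Thbs1 ranged from 0.79 to 1.99 in vehicle and from 0.77 to 2.38 in AZD1480 tumours, and Postn from -5.25 to -3.12 and from -5.20 to -3.72, so the ranges of both nearly coincided. Tnc, encoding tenascin C, had the second widest spread of the 34 genes and was added after its values were seen. Its levels were -4.85, -3.83, -2.59 and -2.25 in vehicle replicates 1 to 4, and -6.63, -3.85, -1.64 and -1.83 in AZD1480 replicates 1 to 4. On the probe used, Tnc followed the slides rather than the treatment, with the slide 2 tumours of both groups (replicates 3 and 4) above all slide 1 tumours. A second probe, with a difference of 0.07 ± 0.83 (SE), did not separate the slides fully. On it vehicle replicate 3 was at -3.75 and vehicle replicate 2 at -3.72. The difference between treatments on the probe used was -0.11 ± 1.15 (SE), and 0.94 without AZD1480 replicate 1. That tumour lay on slide 1, so the difference between the slides enters the 0.94. With normexp background correction, and in the authors' deposited value table, the sign of the difference over all tumours turned.

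The glycoproteins and proteoglycans were divided, 4 of 7 higher and 3 lower by mean, with a median difference of 0.12, or 0.05 without AZD1480 replicate 1. The small leucine-rich proteoglycans decorin and lumican, which regulate fibril diameter, had the largest negative differences of the class. Dcn was at 4.70, 3.83, 2.98 and 3.57 in vehicle replicates 1 to 4, and at 1.90, 3.93, 3.26 and 1.58 in AZD1480 replicates 1 to 4. Lum was at -0.32, -0.16, -0.16 and 0.58 in vehicle replicates 1 to 4, and at -3.20, 1.31, -0.45 and -2.53 in AZD1480 replicates 1 to 4. In both genes AZD1480 replicates 1 and 4 were below every vehicle tumour, while replicate 2 was not. AZD1480 replicate 3 lay within the vehicle range for Dcn and just below it for Lum. The differences were -1.10 ± 0.59 (SE) for Dcn and -1.21 ± 0.92 (SE) for Lum, with adjusted p-values of 0.974 by limma. Without AZD1480 replicate 1 they were -0.85 and -0.54. Leaving out single tumours gave -1.52 to -0.74 for Dcn and -2.05 to -0.54 for Lum. Without AZD1480 replicate 2 both reached an unadjusted limma p under 0.05, as did 748 of all 19778 genes.

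AZD1480 replicates 1 and 4 also had the lowest fibroblast marker means, at -4.48 and -2.47. The markers did not move together in replicate 4, where Tcf21 and Dpt, at -8.67 and -7.79, lay below the lowest well-above-background signal of that array (-6.42). The low mean of replicate 4 rested on these dim markers. Fap and Prrx1, at -0.47 and 0.36 in replicate 4, were higher than in vehicle replicate 1, at -1.63 and -1.35. Thy1, Twist1 and Pi16 were also higher than in vehicle replicate 1, the tumour with the highest Dcn, while Pdgfra and Pdgfrb were lower. The part of fibroblast content in the Dcn and Lum values was not tested. Bgn, the third leucine-rich proteoglycan, did not follow them, with levels of 0.43 and 0.28 in those tumours, inside the vehicle range of -0.56 to 1.18. Its difference was 0.16 ± 0.37 (SE).

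Vcan, the large hyaluronan-binding proteoglycan versican, was at -3.35, -3.72, -3.37 and -3.84 in vehicle replicates 1 to 4, and at -0.50, -3.24, -3.94 and -3.40 in AZD1480 replicates 1 to 4. All tumours but AZD1480 replicate 1 lay within 1 log2 unit, and the difference of 0.80 ± 0.69 (SE) was 0.05 without it. A second probe, well above background on 5 arrays, was at 0.97 in AZD1480 replicate 1 and at -3.88 or less in the others. The third was well above background in that tumour alone, so all 3 probes set it apart.

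Fn1, encoding fibronectin, showed the reverse, and was added after its values were seen. It was at 5.14, 6.09, 6.09 and 6.40 in vehicle replicates 1 to 4, and at 2.49, 6.01, 6.47 and 6.94 in AZD1480 replicates 1 to 4. AZD1480 replicate 1 lay more than 2 log2 units below every other tumour. The difference was -0.45 ± 0.93 (SE) with it and 0.54 ± 0.35 (SE) without it, so its sign rested on that tumour. Fbn1, the microfibril protein fibrillin 1, and Fbln1, encoding fibulin 1, had differences of 0.33 ± 0.37 (SE) and 0.12 ± 0.24 (SE). Without AZD1480 replicate 1, the highest tumour for Fbln1, they were 0.45 and -0.06, so the sign for Fbln1 rested on that tumour. Fbn1 ranged from -1.47 to 0.24 in vehicle and from -0.67 to 0.17 in AZD1480 tumours. Fbln1 ranged from -0.21 to 0.19 and from -0.16 to 0.74, and a second probe of Fbln1 gave -0.09 ± 0.33 (SE).

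The spread between tumours was wider in this set than over all genes, but it was not particular to it. The median SD over the 8 tumours was 0.66 for the 34 matrix genes and 0.41 for all tested genes, and 29 of the 34 lay above that all-gene median. Without AZD1480 replicate 1 the medians were 0.58 and 0.32, again with 29 of 34 above. Over the 8 tumours the median SD was 0.81 in a list of further matrix genes and 1.70 in the fibroblast markers. It was 0.68 in smooth muscle and pericyte markers and in macrophage markers. Lower medians were found for collagen modification genes (0.58), matrix receptors (0.53), endothelial markers (0.49) and TGF-beta genes (0.42). An SD over 1 log2 unit was reached by 8 matrix genes (23.5%), against 16.6% of all genes. These were Lama1, Tnc, Lum, Fn1, Col12a1, Lox, Vcan and Dcn, in that order. An SD over 1 was found without AZD1480 replicate 1 in 4 matrix genes (Lama1, Tnc, Lum and Col14a1) and in 1903 of all 19778 genes. At the other end stood Col4a1 at 0.23, Col4a2 at 0.24 and Fbln1 at 0.31.

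**Figure D4:**
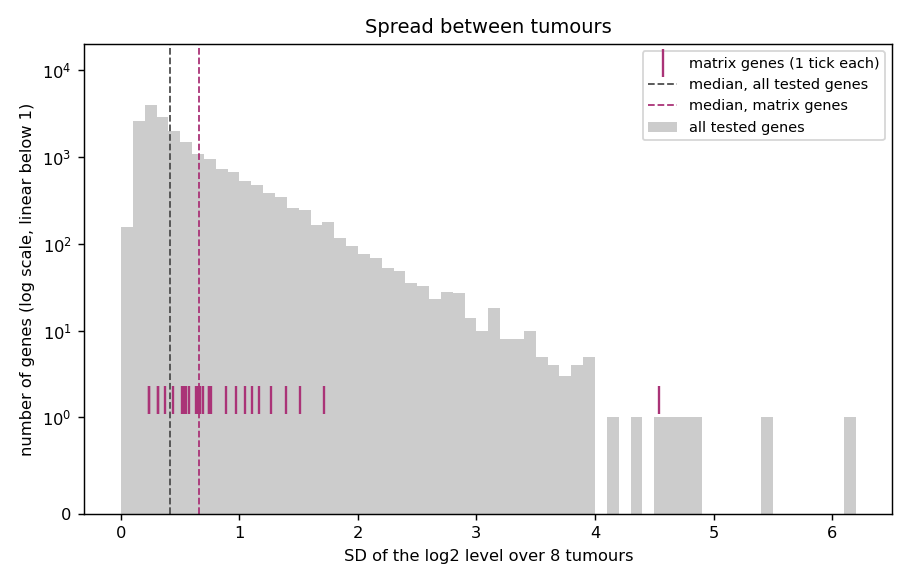
Distribution of the SD of the log2 level over 8 tumours (x axis) for all 19778 tested genes (grey bars, y axis on a log scale above 1) with 1 tick for each of the 34 matrix genes. The matrix gene median of 0.66 lies to the right of the median of all genes at 0.41, and the tick at 4.54 is Lama1.

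The extremes were shared unevenly. Vehicle replicate 1 was the lowest tumour for 13 of the 34 matrix genes, against 15.2% of all genes. AZD1480 replicate 4 was the lowest for 8 (12.4% of all genes) and AZD1480 replicate 1 for 6 (23.8% of all genes). The highest tumour was AZD1480 replicate 1 for 9 matrix genes (28.5% of all genes), and vehicle replicate 3 and AZD1480 replicate 3 for 7 each (9.26% and 6.35% of all genes). The genes lowest in vehicle replicate 1 came from all 6 classes, among them Loxl2, Col5a1, Col4a1, Lamb1, Col12a1, Sparc, Bgn and Serpinh1. No treatment group held all the low or all the high tumours.

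**Figure D5:**
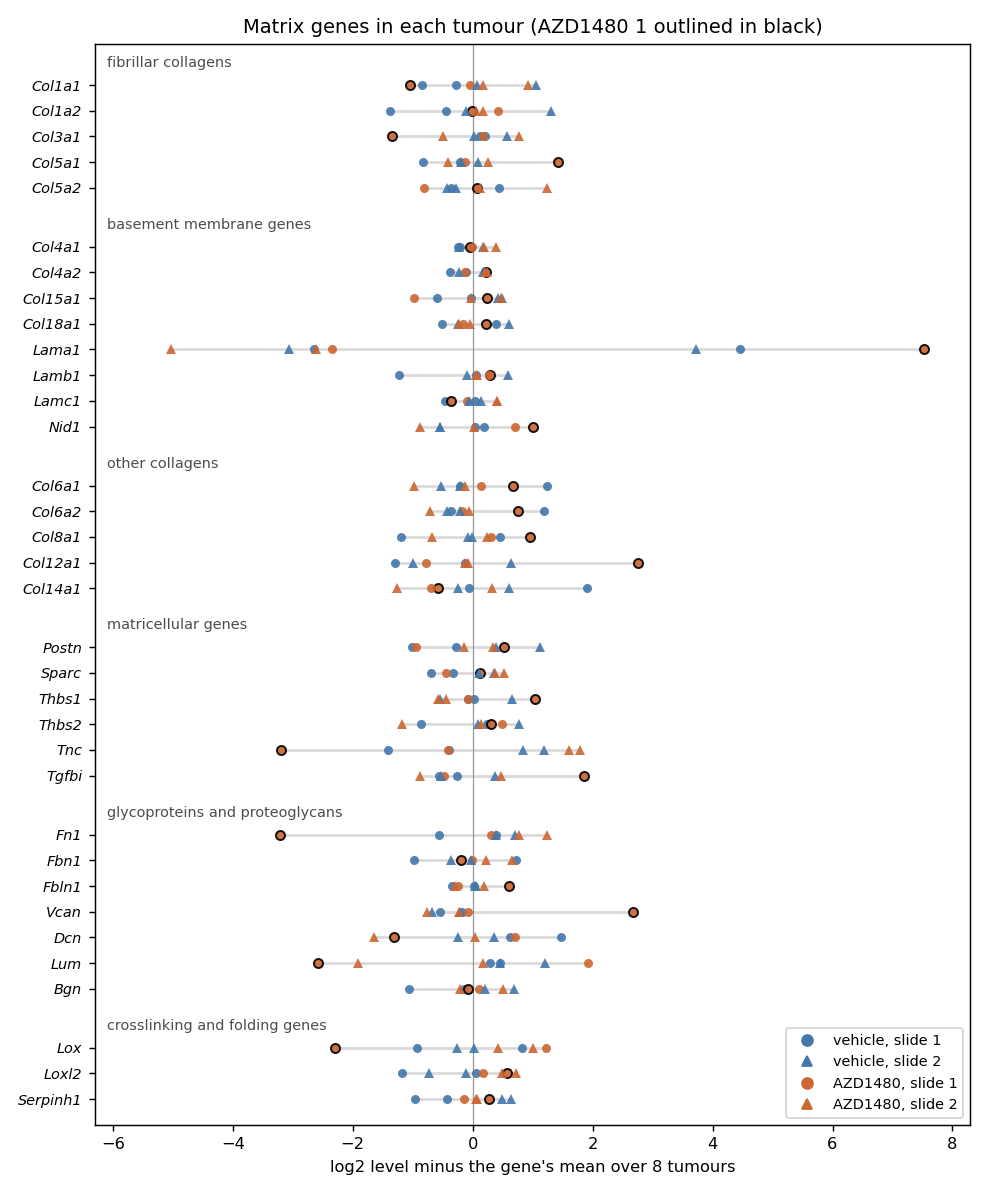
Level of each of the 34 measured matrix genes (rows) in each tumour, as the log2 level minus the gene's mean over the 8 tumours (x axis). Colour gives the treatment, shape the slide, and a black outline AZD1480 replicate 1, which is the lowest point for Fn1, Lum, Lox and Tnc and the highest for Lama1, Col12a1, Vcan and Tgfbi.

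The slides were compared as batches. With treatment in the fit, 6 of 34 matrix genes (17.6%) had an unadjusted p under 0.05 for slide 2 against slide 1, beside a background of 13.2% of all genes, a share near that background, and 0 passed after adjustment by limma (0 of all genes as well; smallest adjusted p of a matrix gene 0.234). By these unadjusted values Tnc had a higher mean on slide 2 by 2.71 ± 0.67 (SE), Col1a1 by 1.11 ± 0.35 (SE), Sparc by 0.68 ± 0.18 (SE) and Lamc1 by 0.44 ± 0.18 (SE). The Sparc probe used was saturated on 1 array, and saturated spots occurred on slide 1 alone. Its second probe, unsaturated, did not repeat this. It ran from 2.37 to 3.94 on slide 1, where AZD1480 replicate 1 alone lay above 2.47, and from 1.84 to 2.58 on slide 2. Nid1 and Col6a1 had lower means on slide 2, at -0.97 ± 0.24 (SE) and -0.92 ± 0.37 (SE). As each slide held both groups in equal number, the slide does not enter the mean difference between treatments over all tumours. With a single tumour left out the groups are no longer equal on each slide, and the fit held treatment alone. A slide effect then enters the difference. This applies to the values of Tnc and Col1a1 without AZD1480 replicate 1, a slide 1 tumour, which are not the effect of that tumour alone.

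Genes that act on this matrix were examined as 4 further lists, and 0 of their genes passed the test over all genes by limma. Of 26 genes of collagen modification and processing, 16 were higher and 10 lower by mean, with a median difference of 0.06 (0.21 without AZD1480 replicate 1) and 0 at an unadjusted p under 0.05. Bmp1, the proteinase that trims the C-propeptide of fibrillar procollagens, had a difference of 0.67 ± 0.29 (SE). The collagen chaperone Fkbp10 had 0.84 ± 0.49 (SE), or 0.39 without AZD1480 replicate 1, and the prolyl hydroxylase subunit P4ha3 had 0.59 ± 0.30 (SE), or 0.34 without that tumour.

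Of 19 measured matrix receptors, 10 were higher and 9 lower, with a median of 0.11 (-0.03 without AZD1480 replicate 1) and 1 at an unadjusted p under 0.05. That gene was Cd44, the hyaluronan receptor, at -1.15 ± 0.49 (SE), and -0.65 without AZD1480 replicate 1. The integrin alpha chains Itga10 and Itga5, which bind collagen and fibronectin, had differences of 0.82 ± 0.36 (SE) and 0.45 ± 0.29 (SE). Of 18 genes of TGF-beta signalling, 13 were higher and 5 lower, with a median of 0.14 (0.01 without AZD1480 replicate 1) and 0 at an unadjusted p under 0.05. The coreceptor Tgfbr3 had a difference of -0.37 ± 0.27 (SE) and the latent TGF-beta binding protein Ltbp1 had 0.43 ± 0.36 (SE). Of 38 further matrix genes, 19 were higher and 19 lower, with a median of 0.01 (0.17 without AZD1480 replicate 1) and 0 at an unadjusted p under 0.05. The microfibril gene Mfap2 had 0.80 ± 0.36 (SE), the type IV chain Col4a6 had -0.47 ± 0.22 (SE), or -0.29 without AZD1480 replicate 1, and the matricellular gene Ccn1 had 0.57 ± 0.28 (SE). Against the 3.46% of all genes at that level, these lists held 1 gene among 101.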

How the data were processed

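The authors used Agilent Feature Extraction 9.5.3, per the submitters' processing notes. Spots have a processed intensity that is background-subtracted within each array, per the file headers. A log2 value table deposited by the authors covers the same arrays, with a median of 8.36 in each column and the same sorted values in 8 of 8 columns (largest gap 0.0006); it was used as an alternative.

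The intensity was taken to log2 and each array's 75th percentile over non-control spots was subtracted. Flagged outlier spots were dropped and spots of a probe averaged. Probes well above background on at least 4 of 8 arrays were kept. Symbols came from RefSeq accessions where these matched, otherwise from the array files, and the brightest probe stood for a gene. Probe coordinates are on mm9, for which no annotation of exons or UTRs was used here.

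AZD1480 was compared with vehicle in R 4.3.3 by limma 3.58.1 (a two-sided moderated test with treatment alone in the model, Benjamini-Hochberg over 19778 genes). The code was tested on simulated data with independent noise of equal SD in every gene. Those data held no outlying tumour and no slide effect, so they do not cover the spread of these tumours. SEs are limma's moderated SEs, and SDs are over 4 tumours per group. The number of arrays limits the precision. Mice were separate animals. Genes named with a value for every tumour are the 3 of smallest p per class and, per further list, the 3 of smallest p are named, apart from 1 gene that is not reported here; Lama1, Tnc and Fn1 were added after seeing the data. Members and lists were chosen with earlier results of these data known. Alternatives were the scaling, background correction, filter, probe choice, gene names, slide, replicate block, array weights and each tumour left out.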

Additional observations from a re-analysis of the deposited data

Results flagged for a closer look

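Each gene's 4 tumours per group were examined for a tumour whose gap to its nearest neighbour, as a share of the group's range, passed Dixon's critical value. Of 68 groups, 4 held one, and chance alone gives about 1 in 20. Among vehicle tumours, Col4a1 was at 1.96 in replicate 4 and at 1.54 to 1.56 in the others. Col6a2 was at 2.73 in vehicle replicate 1 and at 1.11 to 1.33 in the others, and Fbln1 was at -0.21 in vehicle replicate 2 and at 0.15 to 0.19 in the others. Among AZD1480 tumours, Col4a2 was at 1.79 in replicate 2 and at 2.11 to 2.16 in the others.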

How the results depend on the processing

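Under every alternative run, 0 matrix genes and 0 of all genes passed the adjusted threshold; without AZD1480 replicate 1 the smallest adjusted p over all genes was 0.0582. The count of matrix genes at an unadjusted limma p under 0.05 was 0 within slide 1 and 3 within slide 2 (Tnc, Loxl2 and Serpinh1). Over all 19778 genes it was 725 and 668. With the replicate block it was 2 matrix genes (Col14a1 and Loxl2), against 880 of all genes. Leaving out single tumours gave 1 to 3 matrix genes, against 451 to 1621 of all genes. Loxl2 reached that level under every alternative except within slide 1 (unadjusted p = 0.16), with limma adjusted p-values of 0.565 or more over all alternatives. The median of the matricellular genes was 0.47 within slide 1. That of the crosslinking genes was 0.76 within slide 1, 0.83 within slide 2, 0.85 with array weights, and -0.10 to 0.95 with single tumours left out. Of 712 values of single genes under the alternatives, 702 moved by less than 1 SD between tumours and 10 by more, all within a slide. Normexp background correction turned the sign of Col1a1, Col15a1, Thbs2 and Tnc, and the authors' deposited table that of Tnc; median scaling and quantile normalization turned none. Vehicle and AZD1480 tumours with the same replicate number had deviations that correlated at 0.359, 0.356, 0.126 and -0.059 across genes. For vehicle replicates 1 to 3 the tumour of the same number was the best match, while vehicle replicate 4 correlated best with AZD1480 replicate 3 (0.554). These values do not settle whether the numbers mark pairs. The main fit did not take them as pairs, and the replicate block was run as an alternative. The number of genes at an unadjusted p under 0.05 was 685, and 1621 without AZD1480 replicate 3. Signal near background limits Lama1 and Col15a1.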
